A study of Mus musculus with 12 samples.

Results

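Trimethylamine N-oxide (TMAO) was tested against vehicle at low glucose in MIN6 cells, an insulin-secreting line derived from a mouse insulinoma. The comparison used 6 of the 12 RNA-seq libraries of the study, 3 from vehicle-treated cells (0 nM TMAO) and 3 from cells given 100 nM TMAO for 18 h, all 6 at 2.8 mM glucose. The 18 h is the length of the TMAO treatment. The paper's text does not give the length of the glucose step for these libraries. Members were taken by condition and replicate number as the labels give them. The other 6 libraries held the same 2 treatments at high glucose and helped to estimate the spread between libraries. MIN6 is a transformed line. The paper's supplement describes the replicates as independent cell samples, and neither it nor the labels say whether they came from separate passages or days, so p-values measure the spread between these cultures of 1 line.

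TMAO is made in the liver by flavin-containing monooxygenases from trimethylamine, a product of gut bacteria. In β-cells, glucose metabolism raises the ATP level, closes KATP channels and lets calcium enter, which releases insulin granules and also activates the ERK kinases. ERK signalling switches on immediate-early genes such as Egr1 and Fos within minutes, without new protein synthesis, and somewhat later the phosphatases (Dusp family) and Sprouty proteins that turn ERK signalling off again. A comparison at low glucose asks what TMAO does to the transcriptome without a high glucose stimulus.

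Between 18408414 and 19441338 fragments per low-glucose library were counted on genes, and 16222 of the 54022 genes in the table were tested. The defining β-cell markers Ins1, Ins2, Iapp, Pdx1, Mafa, Nkx6-1, Slc2a2 and Ucn3 were present in all 6 libraries, with a summed level of 40146 to 43676 FPKM in vehicle and 39142 to 44797 FPKM in TMAO. Of the α-cell markers, Gcg (mean 208 FPKM in both groups) and Ttr were present, and Irx1 reached at most 3 counts. The 4 macrophage markers summed to 2.91 to 3.63 FPKM in vehicle and 3.88 to 4.10 in TMAO, all but a trace of it from Cd68, with Adgre1 and Ptprc at 0. The 2 δ-cell markers summed to 1.25 to 2.11 FPKM in vehicle and 0.535 to 1.20 in TMAO, all from Sst, with Hhex at 0. For the PP, acinar, ductal, fibroblast and endothelial markers, the summed levels of the 2 groups overlapped, with Spp1 of the ductal list at 34.1 to 40.5 FPKM. In these bulk samples, fewer cells of a type and less RNA per cell cannot be told apart.

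Egr1, a zinc-finger transcription factor and immediate-early gene, was the 1 gene that rose with TMAO at low glucose, and no gene fell, by the quasi-likelihood test of edgeR with p-values adjusted over all tested genes (Benjamini-Hochberg) and called under 0.05. Normalised read counts, which are counts scaled to the same effective library size in every library, were 317, 347 and 317 in the vehicle replicates 1, 2 and 3. They were 450.2, 518 and 437 in the TMAO replicates 1, 2 and 3. The lowest TMAO library lay above the highest vehicle library, and same-numbered libraries differed by 1.42-, 1.49- and 1.38-fold. The log2 fold change was 0.52 ± 0.075 (SE, n = 3 per group), a rise of 43.4%, with a 95% confidence interval of 0.37 to 0.67 and an adjusted p of 0.00207 by edgeR. An exact two-sided permutation test of this gene alone gave p = 0.1, the smallest that 3 against 3 libraries allow. Egr1 (ENSMUSG00000038418) lies at chr18:34859823-34864984 on the plus strand of mm10. The call rests on few libraries: without TMAO replicate 2, the adjusted p was 0.0721 and the log2 fold change 0.44, and over all alternatives the adjusted p ranged from 3.79e-08 to 0.330.

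The one call was 0.00616% of the genes tested. Below the threshold, 357 genes (2.2%) had an unadjusted p under 0.05, 203 of them higher with TMAO (1.25%) and 154 lower (0.949%), where 811.1 would be expected from 16222 tests without any difference. All 3 TMAO libraries were above all 3 vehicle libraries in 516 genes (3.18%), and below them in another 516 genes (3.18%). The median log2 fold change over all tested genes was 0.0011, and the median of its absolute value was 0.053. These shares are the background against which the genes below are given.

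The immediate-early list held 33 transcription factors and related genes, of which 32 were tested and Egr3 was too low (at most 3 counts in a low-glucose library). Like the other lists, it was chosen with earlier results of these data known. Of the 32, Egr1 was called, 6 (Egr1 included) had an unadjusted p under 0.05 and a higher level, and none had one with a lower level. In 6 of 32, the TMAO libraries lay above all vehicle libraries (Egr1, Fos, Fosb, Klf4, Klf10 and Zfp36), and in none below. The median log2 fold change was 0.070, against 0.0011 over all genes, and 24 of the 32 estimates were higher. At high glucose the median of the same genes was 0.019. Fos and Fosb also had higher estimates with TMAO there, at 0.26 ± 0.11 (unadjusted p 0.0192) and 0.27 ± 0.12 (unadjusted p 0.0343), without a call at either glucose level. The difference between the glucose levels was -0.13 ± 0.21 for Fos (unadjusted p 0.523) and -0.31 ± 0.20 for Fosb (unadjusted p 0.134).

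Fosb, which joins Jun proteins in AP-1 dimers, had normalised counts of 45.7, 60.3 and 55.8 with vehicle and 80.9, 91.9 and 68.8 with TMAO. Every TMAO library was above every vehicle library, with a log2 fold change of 0.58 ± 0.16 (SE) and an unadjusted p of 0.00131 that became 1.00 after adjustment by edgeR. Fos, the founding member of that family, had 58.6, 45.5 and 44.7 with vehicle and 65.3, 63.9 and 66.8 with TMAO, a log2 fold change of 0.40 ± 0.18. The TMAO values were close together and above all vehicle values. Klf4, a Krüppel-like factor, had 275, 308 and 298 with vehicle and 339, 343 and 382 with TMAO, a log2 fold change of 0.27 ± 0.083. Junb, another AP-1 partner, had 1049.99, 1052 and 1113 against 1206, 1101 and 1237, so that TMAO replicate 2 lay among the vehicle libraries. Junb shares its locus with Prdx2 on the opposite strand, and the strand setting of the counting is not given in the sources used here.

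Other immediate-early genes had estimates with wider errors or closer to 0. The log2 fold change was 0.24 ± 0.19 for the nuclear receptor Nr4a1, 0.04 ± 0.064 for Jun and 0.08 ± 0.071 for Ier2. Egr2 had at most 10.1 normalised counts in any low-glucose library, which is too few to place a difference of this size. None of these passed the test at either threshold. The 8 tested genes of the list of Egr corepressors and Srf cofactors, which hold Egr1 activity in check or drive its promoter, had a median of -0.024, no unadjusted p under 0.05 and no separated groups. Srf was at 0.05 ± 0.054, Nab1 at -0.07 ± 0.065 and Nab2, which overlaps Nemp1 and Stat6 on the opposite strand, at -0.07 ± 0.071 on the log2 scale.

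**Figure D1:**
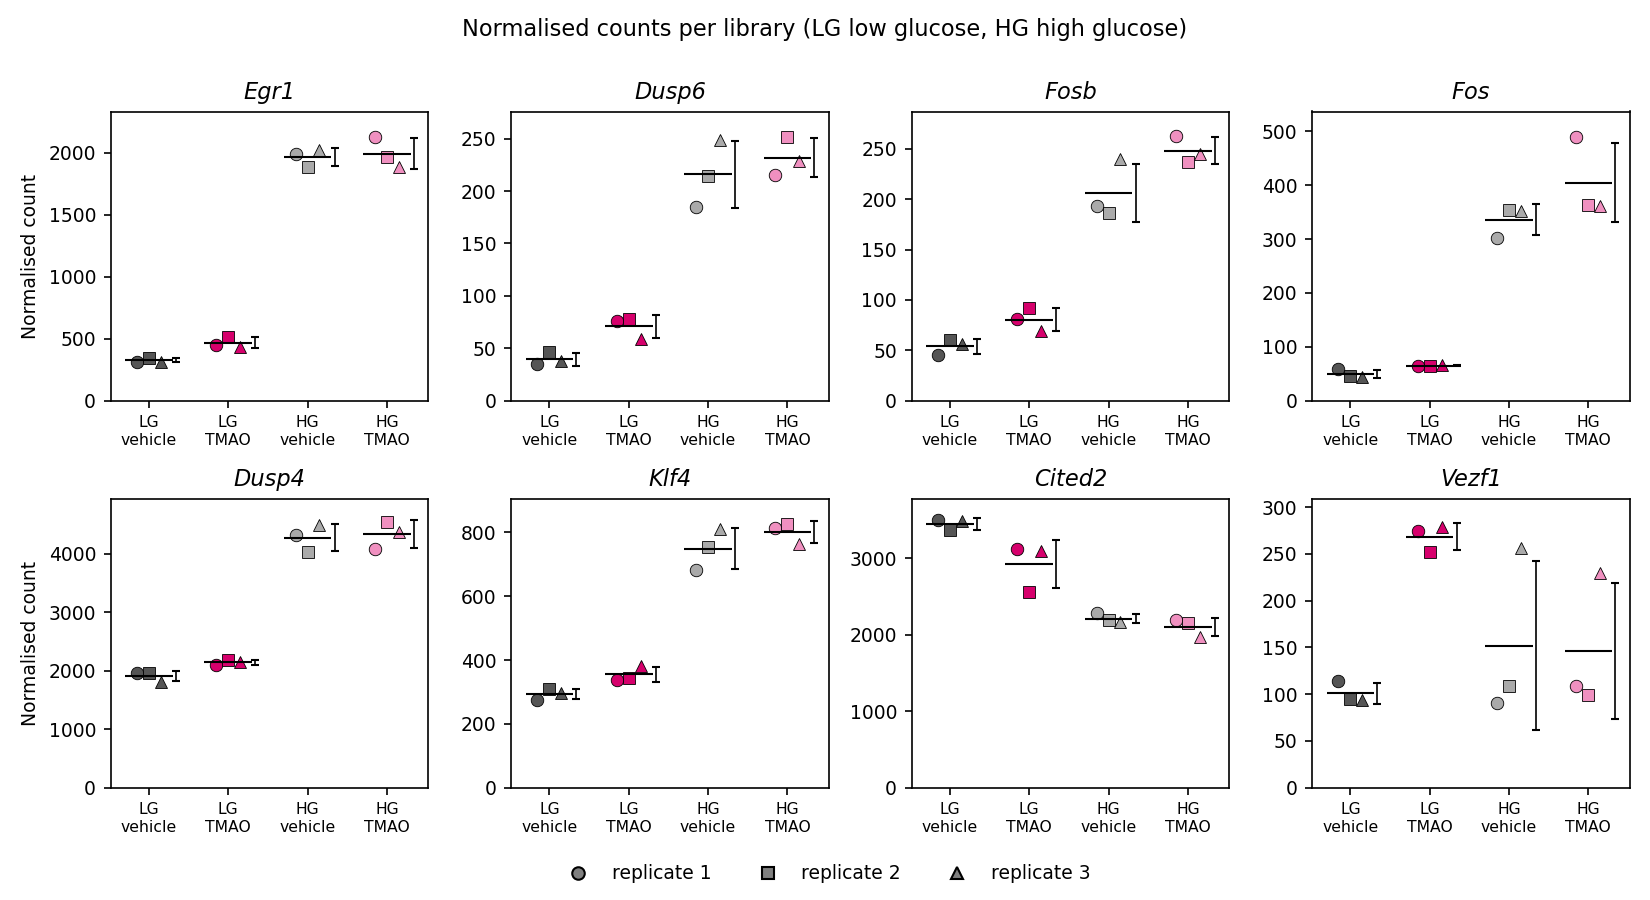
Normalised counts (y axis, from 0) of 8 genes in each of the 12 libraries, by treatment and glucose level (x axis). Symbols are replicates 1 to 3, horizontal bars the mean of 3 libraries and vertical bars the SD. For Egr1, Dusp6, Fosb, Fos, Dusp4 and Klf4, the 3 low-glucose TMAO libraries sit above the 3 low-glucose vehicle libraries and far below the high-glucose libraries, and Vezf1 is split among the high-glucose libraries.

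The 15 feedback inhibitors of ERK signalling include phosphatases that remove phosphate from ERK and other MAP kinases and the Sprouty and Spred proteins that act upstream of them. Of the 14 tested (Dusp2 reached at most 4 counts), 0 were called, 6 had an unadjusted p under 0.05 with a higher level, and none with a lower one. In 4 of 14 (Dusp1, Dusp4, Dusp5 and Dusp6) all TMAO libraries were above all vehicle libraries. The list median was 0.149 on the log2 scale, against 0.0011 over all genes, and at high glucose it was 0.023.

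Dusp6 (ENSMUSG00000019960, chr10:99263231-99267489, plus strand), a cytoplasmic phosphatase selective for ERK, had the second smallest p of all genes that were higher with TMAO. Its normalised counts were 34.7, 46.4 and 37.6 with vehicle and 76.0, 78.4 and 58.7 with TMAO. The groups did not overlap, and the smallest same-numbered ratio was 1.56. The log2 fold change was 0.84 ± 0.18 (SE, n = 3 per group), with an unadjusted p of 6.14e-05 and an adjusted p of 0.498 by edgeR, so the difference was not called. At a raw count of 35 to 81 per library, its estimate is less precise than that of Egr1, and its adjusted p ranged from 0.0172 to 1.00 over the alternatives.

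Spry4, a Sprouty inhibitor of receptor tyrosine kinase signalling, had normalised counts of 19.8, 20.7 and 31.5 with vehicle and 27.3, 62.9 and 43.5 with TMAO. Its log2 fold change of 0.89 ± 0.27 was the largest of the list, but TMAO replicate 1 lay below vehicle replicate 3. Dusp4, a nuclear phosphatase, had 1959, 1956 and 1801 with vehicle and 2102, 2176 and 2141 with TMAO, a log2 fold change of 0.17 ± 0.052. Dusp5, a nuclear phosphatase for ERK, had 936, 927 and 851 against 959, 1036 and 1035, a log2 fold change of 0.16 ± 0.058. Dusp1 had 590.5, 543 and 507 against 603, 607 and 602, a log2 fold change of 0.14 ± 0.065. In Dusp1, Dusp4 and Dusp5 the estimates were thus between 10.4% and 12.3%, with no overlap between the groups.

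**Figure D2:**
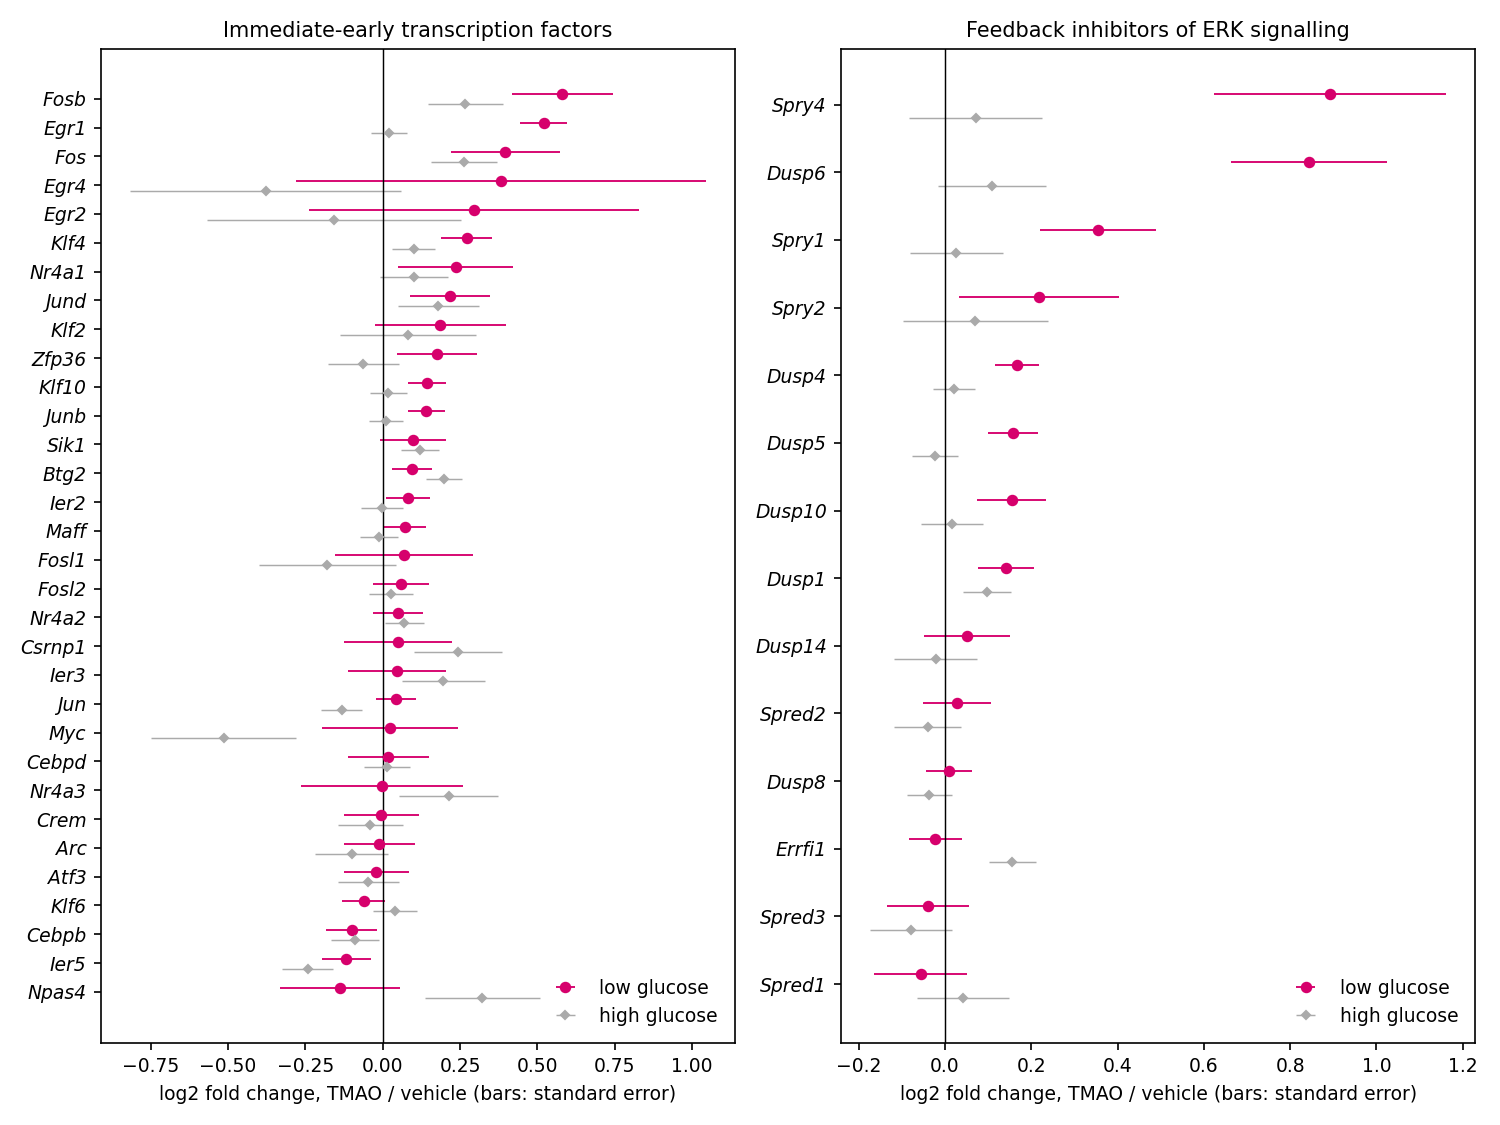
Log2 fold change of TMAO over vehicle (x axis, bars show the standard error) for the tested immediate-early genes and ERK feedback inhibitors (y axis, ordered by the estimate at low glucose). Circles are low glucose and diamonds high glucose. Fosb, Egr1, Dusp6 and Spry4 have the largest estimates at low glucose (0.58, 0.52, 0.84 and 0.89), and the high-glucose estimates of the same genes lie between 0.02 and 0.27.

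Promoters of these genes were read from RefSeq on GRCm38.p6 to show the elements through which such genes are known to be switched on. Serum response factor binds the CArG box, and CREB binds the cAMP response element (TGACGTCA). The 250 bases upstream of the start were searched on both strands for these elements, for the EGR site GCGTGGGCG and for the AP-1 site TGANTCA in 11 genes, namely the 6 immediate-early genes and 4 phosphatases whose groups did not overlap, and Cited2. RefSeq entries were matched for 8 of the 11. The other genes are Egr1, Klf10 and Dusp4. A CArG box was found in Dusp5, which has 2 that adjoin each other, and in Zfp36, and a cAMP response element was found in Dusp1. For Zfp36, the RefSeq start lies 1025 bases from the 5′ end of the counted gene. Fos, Fosb, Klf4, Dusp6 and Cited2 had no match to the 4 motifs as searched in this window. Sites further upstream, or sites that differ from these patterns, were not looked for. Over 10777 promoters of tested genes, a CArG box stood in 1.22%, the cAMP response element in 2.87%, the EGR site in 1.07% and the AP-1 site in 4.05%. A match describes the sequence, not binding. The 2 promoters shown are those with the adjoining CArG boxes and with the cAMP response element, in capitals, 5′ to 3′ along the gene (Dusp5 at chr19:53528895-53529144, plus strand, and Dusp1 at chr17:26508473-26508722, minus strand).
Dusp5: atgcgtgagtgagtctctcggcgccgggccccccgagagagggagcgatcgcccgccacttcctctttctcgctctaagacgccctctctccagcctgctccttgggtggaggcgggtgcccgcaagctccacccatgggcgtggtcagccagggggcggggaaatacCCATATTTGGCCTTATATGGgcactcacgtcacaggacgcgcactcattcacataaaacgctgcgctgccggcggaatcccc
Dusp1: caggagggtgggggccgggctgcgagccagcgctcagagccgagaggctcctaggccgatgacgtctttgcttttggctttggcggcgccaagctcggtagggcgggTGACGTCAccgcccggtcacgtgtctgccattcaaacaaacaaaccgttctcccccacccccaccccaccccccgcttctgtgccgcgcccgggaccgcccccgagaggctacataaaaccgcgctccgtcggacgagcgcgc

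Among the genes with the smallest p and a mean of at least 50 counts, those higher with TMAO were, in order, Egr1, Dusp6, Itpa-ps1, Hnrnpu, Mvd, Fosb, Rhou, Klf4, Sat2 and Dusp4. Hnrnpu, a nuclear RNA-binding protein, had normalised counts of 714, 833 and 756 with vehicle and 923, 858 and 1074 with TMAO, a log2 fold change of 0.31 ± 0.078. Rhou, a small GTPase, had 313, 300.4 and 276 against 367, 386 and 334, a log2 fold change of 0.29 ± 0.087. Mvd, an enzyme of cholesterol synthesis, had 407, 398 and 379.6 against 483, 435 and 531. Itpa-ps1 is a pseudogene of Itpa that lies within Ttc17, so its reads may belong to either, and Itpa itself differed by 0.0034 on the log2 scale. Except for Egr1, none of these 10 passed the adjusted threshold, and Fosb, Klf4, Dusp4, Dusp6 and Egr1 are members of the 2 lists above. Both lists were chosen with earlier results of these data known, so this overlap is not independent of the data.

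The genes with the smallest p that were lower with TMAO were Cited2, Scfd2, Map3k12, Itpripl1, Trim59, Osbpl8, Arhgap10, Ercc6l, Zfp54 and Zc3h12c. Cited2 (ENSMUSG00000039910, chr10:17723218-17725674, plus strand), which binds the coactivators CBP and p300 and holds back HIF-1 activity, had normalised counts of 3504, 3366 and 3483 with vehicle and 3117, 2564 and 3099 with TMAO. All TMAO libraries were lower, replicate 2 by the most, and the log2 fold change was -0.24 ± 0.058 with an unadjusted p of 0.000385. Map3k12, a kinase of the JNK pathway, had 612, 566 and 639 against 511, 495 and 557, and overlaps Pcbp2 on the opposite strand. Trim59, a ubiquitin ligase, had 1401, 1422 and 1288 against 1282, 1239 and 1061. The log2 estimates of the other 7 lay between -0.44 for Itpripl1 and -0.16 for Ercc6l. No lower gene passed the adjusted threshold in the model without a block. When genes with low counts were not filtered out, the same model called Cited2 (adjusted p 0.0172) and 1 provider-named transcript as lower.

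Same-numbered libraries were also compared with the replicate number as a block within each glucose level. With this block, 3 genes (0.0185% of those tested) were called for TMAO at low glucose, namely Egr1 and Vezf1, which were higher, and Cited2, which was lower. Egr1 kept a log2 fold change of 0.52 ± 0.066, with an adjusted p of 4.47e-05 (edgeR). Cited2 had -0.24 ± 0.042 and an adjusted p of 0.0117, which ranged from 9.18e-07 to 1.00 over its alternatives. Without TMAO replicate 2 and with no block, the estimate for Cited2 was -0.15.

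Vezf1 (ENSMUSG00000018377, chr11:88068279-88084729, plus strand), a zinc-finger transcription factor known from endothelial cells, had normalised counts of 114, 94.8 and 93.4 with vehicle and 275, 252 and 279 with TMAO. All TMAO libraries lay above all vehicle libraries, with a log2 fold change of 1.41 ± 0.12 and an adjusted p of 1.59e-09 (edgeR) with the block. Without the block, the adjusted p was 1.00 (SE 0.43) with all 12 libraries and 1.35e-07 with only the 6 low-glucose libraries (SE 0.12), and it ranged from 2.04e-30 to 1.00 over the alternatives. At high glucose, Vezf1 was at 91.0, 109 and 256 with vehicle and 109, 98.9 and 229.5 with TMAO, so that replicate 3 of both treatments lay at the level of the low-glucose TMAO libraries. The high level therefore also occurred without TMAO. Among markers of other cell types, the levels of Cd68 (log2 fold change 0.25 ± 0.14, unadjusted p 0.0978) and Sst (-0.80 ± 0.36, unadjusted p 0.0326, at 6 to 24 counts per library) did not overlap between the groups at low glucose. Neither was called by edgeR, and their part in these results was not tested.

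The levels at high glucose are given beside those at low glucose for the leading genes. Egr1 averaged 327 ± 17.4 with vehicle and 468 ± 43.3 with TMAO at low glucose (mean ± SD, n = 3), and 1967 ± 74.3 and 1994 ± 126 at high glucose. The high-glucose vehicle level was 6.02 times the low-glucose vehicle level for Egr1, 5.45 times for Dusp6, 6.78 times for Fos, 3.83 times for Fosb and 2.24 times for Dusp4, while the low-glucose TMAO level was 1.43, 1.79, 1.32, 1.49 and 1.12 times. For Cited2 the same ratios were 0.641 and 0.848. These pairs of ratios share the low-glucose vehicle libraries, so no test of their likeness was made.

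At high glucose, the log2 fold change of Egr1 with TMAO was 0.02. The difference between the effects of TMAO at the 2 glucose levels was -0.50 ± 0.095 on the log2 scale, with a 95% interval of -0.70 to -0.31, an unadjusted p of 1.16e-05 and an adjusted p of 0.188 by edgeR. It was therefore not called. The adjusted p of this difference ranged from 0.00113 to 1.00 over the alternatives and was 0.00481 with the replicate block. For Dusp6 the difference was -0.73 ± 0.22, with an unadjusted p of 0.00230. By edgeR without a block, 0 genes passed the adjusted threshold for this difference and 545 had an unadjusted p under 0.05. DESeq2's Wald test called 1, and edgeR called 6 without the filter on low counts and 2 with the replicate block, Egr1 and Vezf1. For Vezf1 the difference was -1.45 with the block (adjusted p 9.50e-06) and -1.47 without it (adjusted p 1.00).

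No gene of β-cell identity or insulin production was called. Of the 23 tested, 1 (Pdx1) had an unadjusted p under 0.05 and groups that did not overlap. Ins2 averaged 612991 normalised counts with vehicle and 618813 with TMAO, a log2 fold change of 0.01 with a 95% interval of -0.08 to 0.11. Ins1 had 0.01 with an interval of -0.10 to 0.13, and the granule peptide Iapp 0.00 ± 0.040. Pdx1, a master regulator of β-cells, had 7366, 7164 and 7016 against 7779, 7686 and 7665, a log2 fold change of 0.10 ± 0.042 and an unadjusted p of 0.0203. It overlaps the antisense transcript Plut. Mafa was at 0.00 ± 0.11, Nkx6-1 at -0.08 ± 0.061 and the glucose transporter Slc2a2 at -0.02 ± 0.043. Of 10 dedifferentiation markers, 3 were tested, while Sox9, Neurog3 and Aldh1a3 were at 0 counts in all 6 libraries. Hes1, a Notch target, was the 1 with separated groups, at 0.19 ± 0.11. Separated groups in this and the following lists are given as values, not as changes. Over all tested genes, 3.18% lay higher and 3.18% lower in all 3 TMAO libraries.

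Calcium-handling genes were examined because calcium entry and store release drive insulin secretion. The SERCA pumps, which refill the endoplasmic reticulum with calcium, had estimates close to 0, with a log2 fold change of 0.00 ± 0.036 for Atp2a2 and 0.02 ± 0.040 for Atp2a3. The 95% interval for Atp2a2 was -0.07 to 0.08. Of the 13 tested genes of store calcium, 1 had an unadjusted p under 0.05, the inositol trisphosphate receptor Itpr2, with 88.3, 111 and 100.5 against 122, 115 and 139.6, a log2 fold change of 0.33 ± 0.14. Of the 15 plasma membrane channel genes, Cacna1a lay higher in all TMAO libraries (0.22 ± 0.12) and Slc8a1 lower (-0.06 ± 0.065). The L-type channel Cacna1c was at 0.05 ± 0.080. Of the 23 exocytosis genes, Stxbp5 had separated groups (-0.07 ± 0.048), and Snap25 was at 0.08 ± 0.047.

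No gene of the stress lists was called. Of 25 genes of the unfolded protein response, none had an unadjusted p under 0.05, and 1 (Atf6, -0.07 ± 0.050) had separated groups. The chaperone Hspa5 was at 0.02 ± 0.048, Ddit3, which overlaps Mars on the opposite strand, at 0.02 ± 0.048 and the kinase Eif2ak3 at -0.01 ± 0.053. Of 19 heat shock genes, Hspb1 alone had an unadjusted p under 0.05, at -0.86 ± 0.32, with 37.7, 27.7 and 15.2 against 16.6, 11.6 and 16.2, while Hsf2 and Hspa1a lay lower in all TMAO libraries. Of 25 antioxidant and reactive oxygen genes, 0 had such a p, 18 estimates were lower, the median was -0.012, and the cystine transporter Slc7a11 had separated groups (-0.19 ± 0.13). Of 18 tested inflammasome and NF-κB genes, Tnfaip3, a brake on NF-κB, had separated groups (-0.13 ± 0.096). Nlrp3 reached at most 2 counts and was not tested, Il1b was at -0.43 ± 0.33 and Txnip at -0.05 ± 0.061.

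No gene of the metabolic and growth lists was called in the model without a block. Of 26 genes of cholesterol and fatty acid synthesis, 21 estimates were higher, the median was 0.030, and Mvd (0.29 ± 0.081) and Acly (0.04 ± 0.037) had separated groups. Of 24 cell cycle genes, 20 estimates were lower with a median of -0.027, Mcm4 and Ccne2 lay lower in all TMAO libraries and Ccnd3, which overlaps Bysl on the opposite strand, higher (0.27 ± 0.10). Of 25 glycolysis genes, the median was 0.0015 and Pfkfb3 (0.11 ± 0.099) had separated groups. Of 15 mitochondrial genome genes, 10 estimates were higher and 5 lower, with a median of 0.0062. In this list mt-Rnr1 and mt-Atp8 lay lower in all TMAO libraries, the latter with 18.9, 24.7 and 20.3 against 15.6, 10.6 and 8.09. Both mt-Atp8 and mt-Co3 overlap mt-Atp6 on the same strand. The cytochrome c oxidase subunit mt-Co3 had 475, 578 and 523 with vehicle and 542, 679 and 814 with TMAO, which overlap, and a log2 fold change of 0.37 ± 0.18. Its adjusted p was 1.00 by edgeR without a block and 4.68e-05 with the replicate block in the 6 low-glucose libraries alone, which was the lowest over its alternatives. Of 19 apoptosis genes, Birc2 lay higher (0.13 ± 0.062), and of 18 clock genes none had separated groups, with Per2 at 0.19 ± 0.090. The list of trimethylamine and methylamine metabolism had 10 of 20 members above the filter. Of these 10, 5 estimates were higher and 5 lower, and 2 genes had separated groups. The betaine transporter Slc6a12 had 24.8, 39.5 and 30.4 against 19.5, 18.4 and 24.3, a log2 fold change of -0.61 ± 0.31 and an unadjusted p of 0.0556. Fmo1, a flavin-containing monooxygenase, had 21.8, 20.7 and 19.3 against 28.3, 29.99 and 26.3, a log2 fold change of 0.45 ± 0.29.

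**Figure D3:**
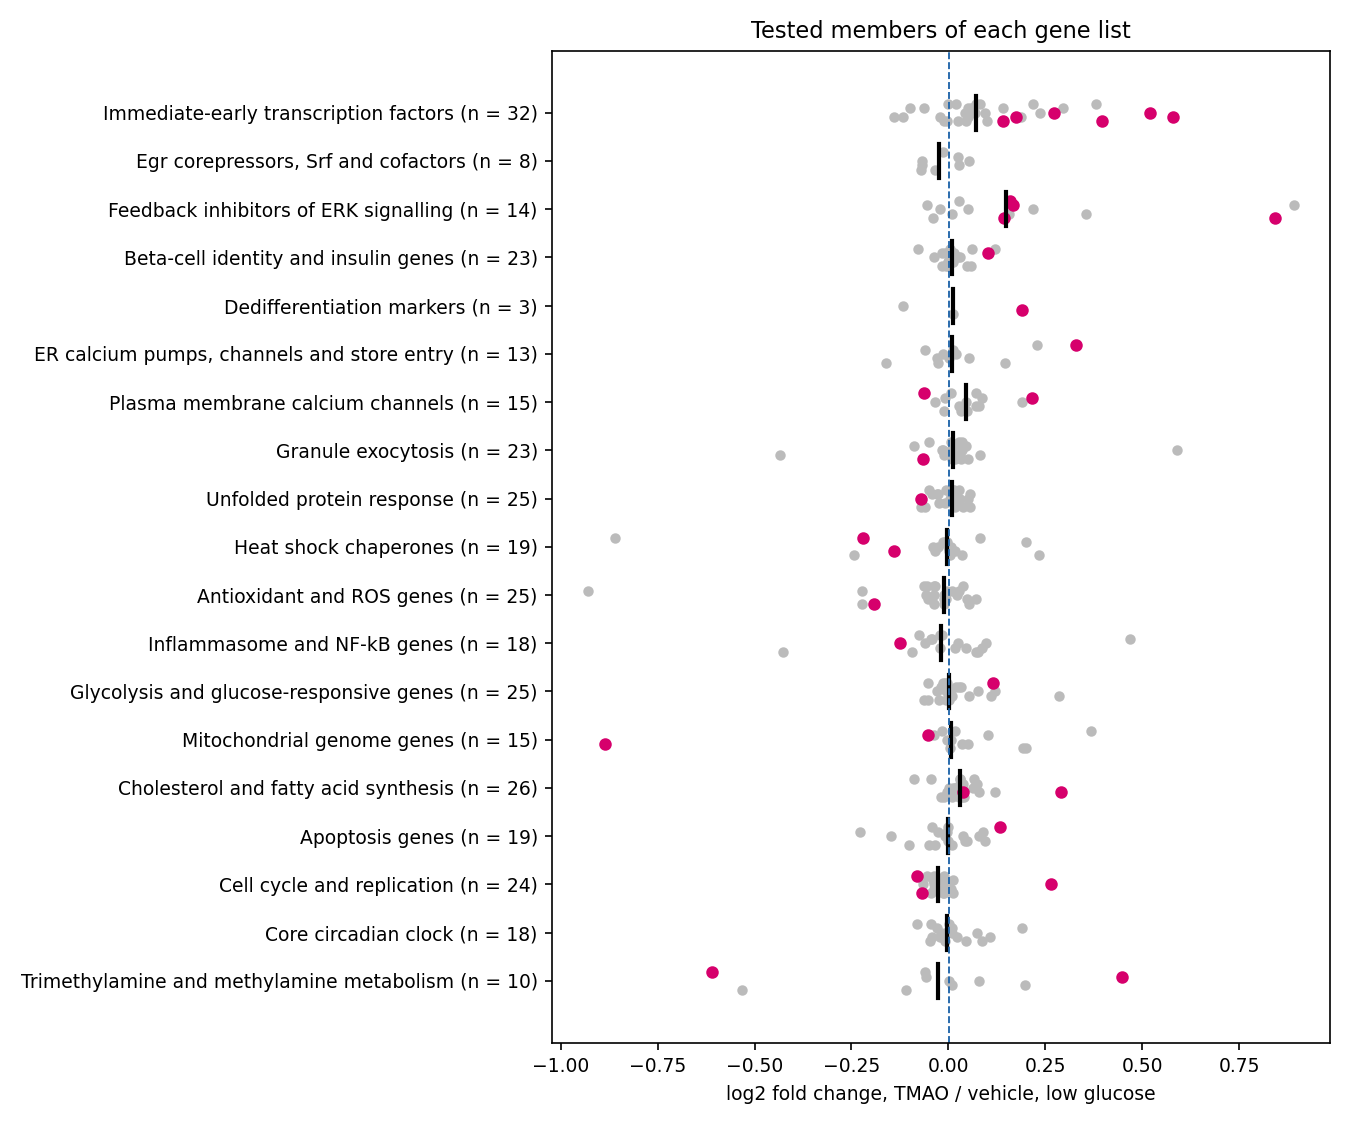
Log2 fold change of TMAO over vehicle at low glucose (x axis) for the tested members of 19 gene lists (y axis, number tested in brackets). Coloured points are genes whose 3 TMAO libraries lie entirely above or below the 3 vehicle libraries, black bars list medians and the dashed line the median of all 16222 genes. The medians of the ERK feedback inhibitors (0.149) and the immediate-early genes (0.070) lie furthest from that line. All lists were chosen with earlier results of these data known.

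More genes differed by replicate number than by TMAO among the 6 low-glucose libraries. In a principal component analysis of these libraries, the first component held 28.7% of the variance. Its scores were -18.9, 2.93 and 15.1 for vehicle replicates 1, 2 and 3 and -21.3, 5.37 and 16.7 for TMAO replicates 1, 2 and 3. Libraries with the same number had neighbouring scores, and the treatments overlapped. With the treatment in the model, 444 genes (2.74%) differed between replicate numbers at an adjusted p under 0.05 (edgeR). Replicate 1 was lowest for 378 of the 444 and replicate 3 highest for 344. None of the 444 was called for TMAO, for which only 1 gene was called without the block and 3 with it. With so few calls, this cannot show whether replicate number and TMAO concern separate genes.

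The genes with the smallest p for replicate number were Neat1, Leng8, Ogt, Srrm2, Pnisr and Ccnl2. Neat1, the scaffold of paraspeckles, had normalised counts of 2880.03, 3959.96 and 4961 with vehicle and 2895, 4027 and 5249 with TMAO. Malat1, which was named after its values were seen, had 10538, 16851 and 21459 with vehicle and 10507, 16594 and 20019 with TMAO. Its difference between replicates far exceeded that between treatments. Leng8 had 2071, 2926 and 3546 against 2111, 3030.33 and 4053, Ogt, the O-GlcNAc transferase, 3755, 4889.68 and 5779 against 3776, 4969 and 5435, and Srrm2, a spliceosome protein, 7664, 9407 and 10751 against 7666, 9667 and 11192.3. Pnisr and the cyclin Ccnl2 were also lowest in replicate 1 and highest in replicate 3 of both treatments. Srrm2 overlaps Elob and Leng8 overlaps Leng9 on the opposite strand. The share of long non-coding RNA was 0.615%, 0.697% and 0.740% of counts in the vehicle libraries and 0.615%, 0.699% and 0.739% in the TMAO libraries. What the replicate number stands for is not stated, and its part in the TMAO results was not tested beyond the block.

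**Figure D4:**
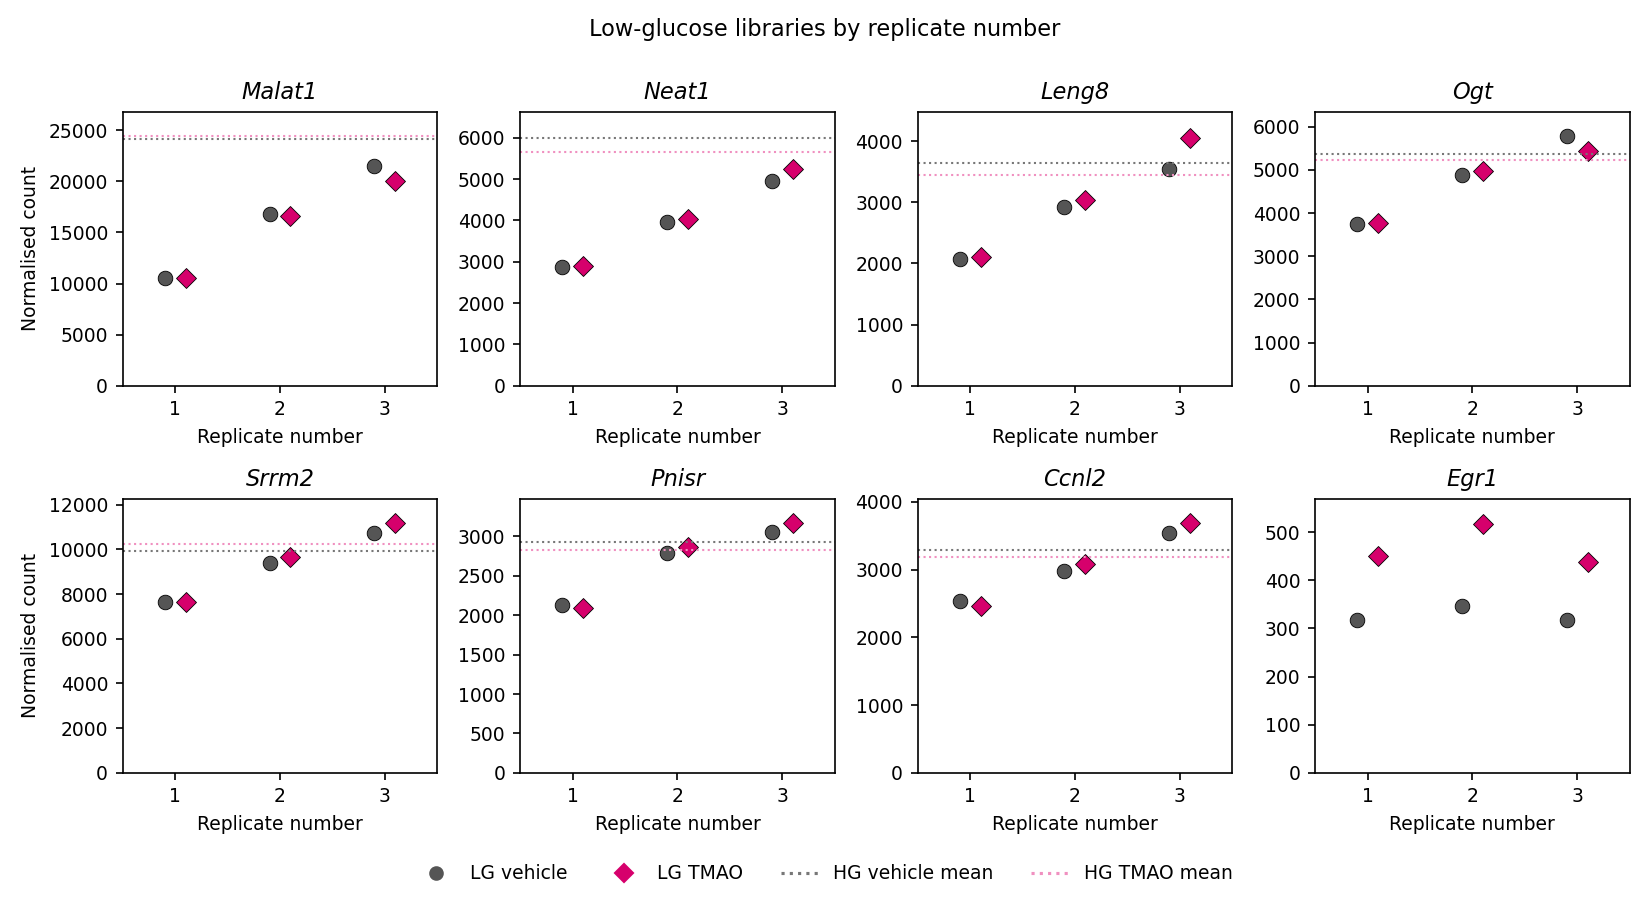
Normalised counts (y axis, from 0) in the 6 low-glucose libraries by replicate number (x axis) for 7 genes that differ by replicate number and for Egr1. Circles are vehicle, diamonds TMAO and dotted lines the high-glucose means (not drawn for Egr1). Same-numbered libraries of both treatments lie close together for Malat1 and Neat1, whereas for Egr1 all 3 TMAO libraries (437 to 518) lie above the vehicle libraries (317 to 347).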

How the data were processed

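RNA-seq of MIN6 cells was available for 12 libraries, 3 for each of 4 conditions, grouped by the labels and column names. Per the labels, poly-T selected RNA was sequenced. The authors deposited counts of fragments per gene, without normalization, and FPKM values. The submitters' processing notes name HISAT2 2.0.5, featureCounts 1.5.0-p3, DESeq2 1.16.1 and mm10. Whether counting used strand is not given in the sources used here. Of 53465 Ensembl IDs, 53360 are in GENCODE M21, and 51421 have identical coordinates there.

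The count model was edgeR 4.0.16 (R 4.3.3), with filterByExpr by condition, TMM normalization and the robust quasi-likelihood F test on all 12 libraries with 4 condition means. Adjusted p-values are Benjamini-Hochberg values over all tested genes. The standard error is the log2 fold change divided by the square root of F. Normalised counts are TMM-scaled to an effective library of 18826900. The biological coefficient of variation was 5.34%. Totals lay between 16793162 and 22340542, and this depth limits low genes. No pair of replicates was as alike as repeated draws from the same library (relative chi-square 1.75 to 3.19). Intervals are 95% intervals.

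Named genes were the called genes, the 10 smallest p in each direction with a mean of at least 50 counts, 2 members by level and 2 by p of each of 19 lists, a fixed set of β-cell, stress and immediate-early genes, and the 6 smallest p for replicate number. Further list members are named where groups did not overlap or a value was asked of the list, chosen after their values were seen. The members and lists were chosen with earlier results of these data known. Alternatives were DESeq2 1.42.0, limma 3.58.1 on FPKM (log2 after adding 1 or 0.1), other filters, the replicate number as a block, and libraries left out. The steps were tested on simulated data. Promoters came from RefSeq (GRCm38.p6). Some genes of the lists are not reported here.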

Additional observations from a re-analysis of the deposited data

How the results depend on the processing

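For TMAO at low glucose, 1 gene was called. This was also the count with DESeq2's size factors, the Wald test of DESeq2, at least 10 counts in every library, a block shared by both glucose levels and an adjusted p under 0.1. The count was 3 with the replicate block within glucose level, 7 without a filter on low counts, 3 with only the 6 low-glucose libraries and 27 with the replicate block in these 6. It was 0 with limma on log2(FPKM + 1) and 0 on log2(FPKM + 0.1), and 357 at an unadjusted p. limma with the block called 1 gene, Vezf1 in place of Egr1. Leaving out each library gave 0 to 1, with 0 without TMAO replicate 2. The block with a number left out gave 3 to 4, and leaving out both libraries of a number, an alternative chosen after seeing the data, gave 0 to 2. For the difference between glucose levels, 0 genes were called, 2 with the replicate block within glucose level, 1 with DESeq2's Wald test, 6 without a filter, 545 at an unadjusted p, 0 to 2 with a library left out and 2 to 3 with the block and a number left out. For replicate number, 444 genes were called, 990 with only the 6 libraries and 26 with limma. The cause of these shifts was not tested.

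The pairing by replicate number was checked by the correlation of same-numbered libraries' deviations from their condition means, which was 0.213, 0.0275 and 0.147 for numbers 1, 2 and 3 at low glucose. Since 1 pair was under 0.1, the numbers are treated as shared numbers only. TMAO replicate 2 correlated best with vehicle replicate 3 (0.0494). Estimates under alternatives were compared for the named genes and for the Egr1 difference between glucose levels. Of these, 2347 stayed on their side of the threshold and, where not called, within 1 standard error. Another 102 moved by over 1 standard error, and 24 crossed to below an adjusted p of 0.05. The 5 that crossed above it were all for Egr1, the 1 gene called in the main fit, which did not change sign. Estimates near 0 that were not called could take either sign. At these depths, genes under about 50 counts are imprecise.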

Other observations

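Several genes varied strongly between libraries, and were named after their values were seen. Gapdh, a glycolytic enzyme often used for normalization, had normalised counts of 1924, 2118 and 1292 with vehicle and 2793, 3274 and 425 with TMAO at low glucose, and 347, 295 and 271 with vehicle and 1688, 3381 and 2614 with TMAO at high glucose. Its log2 fold change with TMAO was 0.29 ± 0.60 at low glucose and 3.08 ± 0.71 at high glucose, where the groups did not overlap (unadjusted p 0.00238, adjusted p 0.910 by edgeR). Rnf181, a ubiquitin ligase, had 211, 157 and 560.2 with vehicle and 80.9, 80.3 and 113 with TMAO at low glucose, and Uqcrc1, a subunit of respiratory complex III, had 358 in TMAO replicate 3 and 156 to 211 in the other low-glucose libraries. Uqcrc1, Rnf181, Coro1b and Rpl21 were among the calls of the 6-library fit with the replicate block, where Rnf181 was lower and the others higher with TMAO.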
